A study of Homo sapiens with 9 samples.

Results

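The integrins and leukocyte adhesion genes described here are 35 human genes: 18 integrin alpha subunits, 8 integrin beta subunits, the selectin ligand SELPLG, the hyaluronan receptor CD44, 5 immunoglobulin-like adhesion molecules (ICAM1, ICAM2, ICAM3, VCAM1 and PECAM1) and the integrin-associated membrane proteins CD47 and CD9. They were chosen by gene symbol from the 25680 symbols in the count tables, with the RefSeq transcript of the highest total standing for each gene. Their messenger RNA was measured by poly(A) RNA-seq in SKNO-1 cells, an acute myeloid leukaemia line that carries the AML1-ETO fusion, grown per the study's methods in medium with serum and GM-CSF. There were 9 samples, 3 in each of 3 groups. The control, shControl, is called EV in the labels without explanation while the study names a control shRNA, and the other groups carried either of 2 shRNAs against ASXL2, shASXL2-2 and shASXL2-3. All groups share the cell line and its fusion, and the line is a single leukaemia grown in culture. The extraction text attached to the samples speaks of sorted marrow cells, and the named cell line was taken as the source. Each group has replicate numbers 1, 13 and 25, whose meaning the labels do not give, and all values below are listed in that order. The design asks whether ASXL2 knockdown changed these genes. The shared numbers allow a second comparison, that of the numbers with each other.

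An integrin is a membrane receptor made of an alpha and a beta chain, and the pairing sets what it binds: the beta1 family holds cells to matrix such as fibronectin, collagen and laminin, and the beta2 family, found on white blood cells, holds them to the ICAM proteins of other cells. Blood progenitors are kept in the marrow largely through the alpha4 beta1 integrin, whose partner on stromal and endothelial cells is VCAM1, and through CD44, which binds hyaluronan. SELPLG carries the sugars by which rolling leukocytes catch on selectins.

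Of the 35 genes, 23 had an entry in the RefSeq promoter table used here (GRCh38.p14), with 33 windows of 300 bases that run from 250 bases before a transcription start to 50 bases after it. Each window was searched on both strands for short motifs of 3 transcription factor families of blood cells, none of which contains another. The RUNX motif, spelled TGTGGT, stood in 3 of the 33 windows and in 13.1% of all 35116 windows. Both ITGA6 windows are among the 3, and they overlap and hold the same match. The GATA motif, spelled AGATAA, stood in 1 window of the set and in 10.3% of all. The ETS motif, spelled CCGGAA, stood in 4 windows of the set and in 17.2% of all. The windows of 4 genes are shown with matches in capitals. ICAM1 and ITGA6 are the pair that differed between the numbers 25 and 13 in opposite directions, and ITGAM and CD44 are the pair that exceeded their number's control in each of the 6 knockdown samples. The ICAM1 window (chr19:10270870-10271169, plus strand) holds 4 ETS matches, which begin 181, 120, 98 and 75 bases before the start. The ITGA6 window (chr2:172427336-172427635, plus strand) holds a RUNX match 237 bases and an ETS match 158 bases before the start. The same RUNX match lies 13 bases after the start of the other ITGA6 window, which is not shown. In the ITGAM window (chr16:31259725-31260024, plus strand) a RUNX match lies 24 bases after the start. The CD44 window (chr11:35138921-35139220, plus strand) has no match, which says only that these letters are not in it.
ICAM1: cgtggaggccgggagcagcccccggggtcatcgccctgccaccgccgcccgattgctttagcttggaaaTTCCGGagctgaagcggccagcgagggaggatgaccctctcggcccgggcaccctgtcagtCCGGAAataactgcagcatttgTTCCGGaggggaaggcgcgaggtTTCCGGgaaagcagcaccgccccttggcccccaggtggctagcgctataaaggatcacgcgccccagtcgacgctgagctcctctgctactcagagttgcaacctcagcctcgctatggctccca
ITGA6: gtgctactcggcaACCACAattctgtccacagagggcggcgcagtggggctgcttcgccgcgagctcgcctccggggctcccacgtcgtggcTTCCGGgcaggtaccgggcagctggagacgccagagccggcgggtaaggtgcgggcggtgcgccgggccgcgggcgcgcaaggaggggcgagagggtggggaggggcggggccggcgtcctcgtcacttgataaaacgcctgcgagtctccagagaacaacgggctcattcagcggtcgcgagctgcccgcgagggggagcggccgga
ITGAM: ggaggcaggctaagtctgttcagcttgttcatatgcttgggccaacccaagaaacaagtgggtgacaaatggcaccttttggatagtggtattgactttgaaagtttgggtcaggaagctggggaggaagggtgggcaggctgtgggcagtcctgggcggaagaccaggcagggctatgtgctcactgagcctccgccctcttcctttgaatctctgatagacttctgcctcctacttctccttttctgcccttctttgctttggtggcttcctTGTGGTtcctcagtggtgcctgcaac
CD44: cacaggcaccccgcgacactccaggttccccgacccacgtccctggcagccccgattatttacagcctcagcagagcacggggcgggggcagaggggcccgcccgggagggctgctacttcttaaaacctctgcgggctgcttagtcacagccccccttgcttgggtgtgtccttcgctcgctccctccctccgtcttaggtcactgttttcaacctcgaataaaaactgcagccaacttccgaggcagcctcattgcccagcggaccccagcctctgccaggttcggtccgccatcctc

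Library totals were 27714431 to 35406063 counts with 1 transcript per gene, so that 3 counts, the most that a count of 0 allows, correspond to 0.0847 to 0.108 CPM (the count relative to its library's normalised total). These floors hold for counting error alone. ASXL2 itself stood at 67.9, 67.9 and 74.7 CPM in shControl, at 30.4, 36.2 and 36.2 CPM in shASXL2-2 and at 26.9, 29.1 and 41.1 CPM in shASXL2-3, with no overlap between control and knockdown samples. Averaged over both shRNAs, its edgeR log2 fold change was -1.07 ± 0.13 (SE, adjusted p = 0.178) without a block and -1.09 ± 0.08 (adjusted p = 0.00098) with replicate number as block. DESeq2 without a block gave ASXL2 an adjusted p of 1.8e-08. Of the 8 myeloid progenitor markers 7 passed the filter, with MPO at 6368 to 10240.0 CPM, while CD34 had at most 10 counts in any sample. The T cell, erythroid and epithelial markers summed to at most 0.173, 0.374 and 0.136 CPM in any sample. Megakaryocyte, endothelial and stromal markers summed to 0.837 to 1.53, 2.60 to 5.79 and 1.00 to 2.03 CPM, and B cell markers to 50.3 to 67.5 CPM with MS4A1 at 0 counts. On the first principal component of all genes the shASXL2-3 sample numbered 1 stood apart at -58.5. The other 8 samples lay between -24.9 and 25.0. Some values are therefore also given without shASXL2-3 numbered 1, and values given only with it may depend on it. The methods call the samples biological replicates, and the labels do not say that they were separate cultures; p-values measure the spread between these samples.

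SKNO-1 cells expressed 25 of the 35 genes above the filter on low counts. The other 10 had at most 8 counts in any sample: the collagen receptor chains ITGA1, ITGA2 and ITGA11, the laminin receptor chain ITGA3, ITGA8, the myeloid chain ITGAD, the beta chains ITGB3, ITGB5 and ITGB6, and VCAM1. ITGA8 and VCAM1 had 0 counts in every sample. Levels of different genes were compared as CPM per kilobase of transcript, for the 34 genes with an annotated length; PECAM1 had none.

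The 6 genes with the highest level per kilobase were CD44 (mean 65.4 CPM per kb), the fibronectin receptor chain ITGA5 (64.5), the VCAM1 and fibronectin receptor chain ITGA4 (62.9), the leukocyte integrin ligands ICAM2 (48.0) and ICAM3 (42.0), and ITGB1 (39.6). Over the 9 samples these means ran across 51.0 to 96.3 for CD44, 56.9 to 71.6 for ITGA5 and 55.6 to 73.7 CPM per kb for ITGA4, so the order of the first 3 genes lay within their spread. ICAM2 at 39.4 to 60.5, ICAM3 at 28.8 to 78.1 and ITGB1 at 36.1 to 44.7 CPM per kb overlapped each other as well. The 6 lay between the 84.3 and 90.9 percentiles of the 13710 tested genes with a length, whose median was 8.42 CPM per kb. At the other end, ITGAL (0.136 CPM per kb), the chain of LFA-1, and ITGB8 (0.131) were detected near the bottom of the tested genes.

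The messenger RNA of chains and of their partners stood at unequal levels per kilobase, and protein was not measured here. ITGA4 and ITGA5 together made up 65.8% to 79.7% of the summed level per kilobase of all alpha chains. The alpha chains that pair with ITGB1 summed to 128 to 149.9 CPM per kb against 36.1 to 44.7 CPM per kb for ITGB1, a ratio of 2.93 to 4.10. That sum includes chains with other partners as well, such as ITGA4 with ITGB7 and ITGA6 with ITGB4. For the leukocyte beta2 family the order was the reverse: ITGB2 stood at 5.74 to 32.9 CPM per kb and its alpha chains ITGAL, ITGAM, ITGAX and ITGAD at 0.611 to 2.32 CPM per kb in sum, so that ITGB2 exceeded them 6.25 to 14.2 times in each sample. ITGA2B, the platelet fibrinogen receptor chain, had a mean of 25.1 CPM per kb, while its partner ITGB3 had at most 2 counts in any sample and the megakaryocyte marker PF4 had none.

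**Figure D1:**
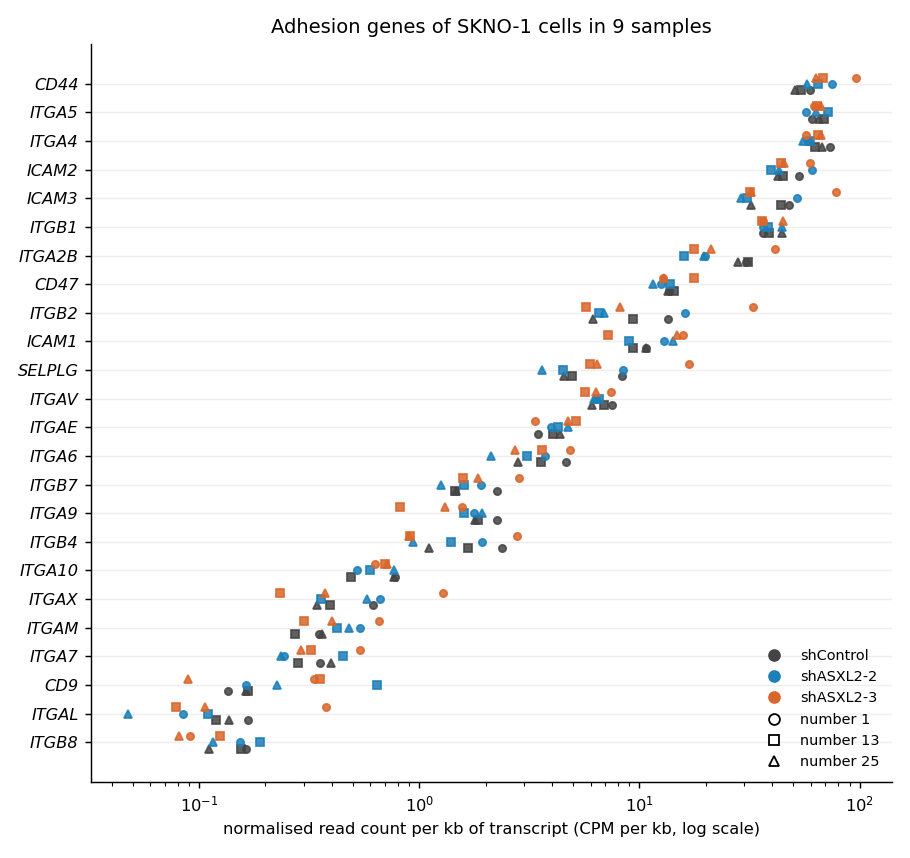
Level of the 24 tested adhesion genes with an annotated length, as CPM per kilobase of transcript on a log axis, with 1 point per sample coloured by shRNA and shaped by replicate number. CD44, ITGA5 and ITGA4 lie at the top with overlapping points. The circle of shASXL2-3 numbered 1 lies to the right of the other 8 points for ITGB2, SELPLG, ICAM3 and ITGAX. It does so too for CD44, ITGA2B, ITGA6, ITGA7, ITGAL, ITGAM, ITGB4, ITGB7 and ICAM1.

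ASXL2 knockdown was not followed by a change of any of the 25 tested genes that passed the threshold in edgeR, either without or with the replicate block. Without the block, 0 of the 25 genes had an adjusted p under 0.05 for shASXL2-2, for shASXL2-3, for both averaged and for shASXL2-3 against shASXL2-2, and 0.0% of all 14199 tested genes did. An unadjusted p under 0.05 was found for 2, 2, 2 and 1 of the 25 genes, and for 5.37%, 5.09%, 6.63% and 2.06% of all genes. Blocking on replicate number again gave 0 calls among the 25 genes, beside 0.282%, 0.416%, 1.1% and 0.106% of all genes. With the block, 5, 4, 5 and 9 of the 25 genes (20%, 16%, 20% and 36%) had an unadjusted p under 0.05, beside 18.7%, 18.7%, 20.4% and 11.9% of all genes. DESeq2 with the same block called 0 genes for shASXL2-2 (2.63% of all genes), 3 for shASXL2-3 (CD44, ITGA9 and SELPLG, beside 3.34% of all), 2 for both averaged (CD44 and ITGA9, beside 4.38%) and 1 between the shRNAs (SELPLG, beside 1.07%). Averaged over both shRNAs in the blocked fit, the median log2 fold change of the 25 genes was -0.02, and that of all genes 0.01.

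Without the shASXL2-3 sample numbered 1, the blocked edgeR fit called 4 of the 25 genes for both shRNAs averaged, beside 12.2% of all genes: CD44 was higher, and ITGA2B, ITGA9 and ITGB4 were lower. The same 4 genes were called for shASXL2-3 alone, beside 2.58% of all genes. For shASXL2-2 the 4 genes were CD44, higher, and ITGA2B, ITGA4 and ITGA6, lower, beside 11.3% of all genes. Between the shRNAs ITGA9 and SELPLG were called, beside 0.704%. Without other single libraries the blocked fit called no gene but SELPLG, beside 0 to 259 of all 14199 genes. The calls of the 25 genes, like those of all genes, depended on single libraries and on the tool. The 25 genes are described by their values in each sample.

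**Figure D2:**
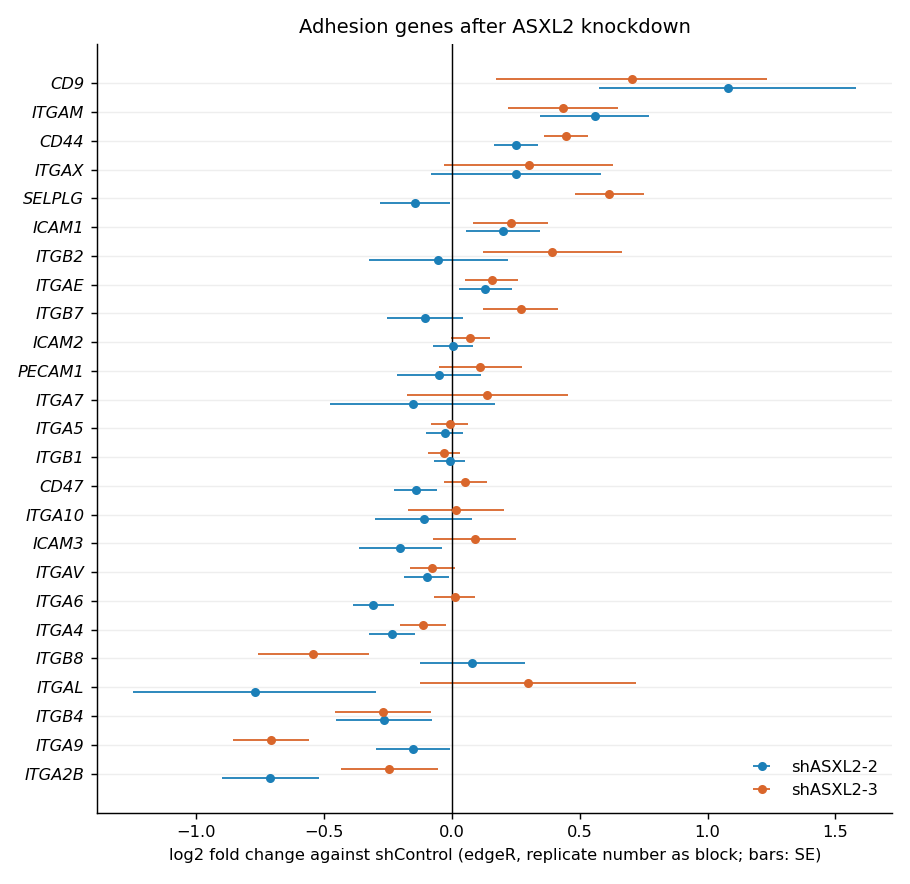
Log2 fold change of the 25 tested adhesion genes for shASXL2-2 and shASXL2-3 against shControl, from edgeR with the replicate number as a block, with bars of 1 SE and genes ordered by the mean of both shRNAs. CD44 and ITGAM lie right of 0 for both shRNAs, ITGA2B and ITGA9 left of 0, and ITGB1 and ITGA5 close to it. No point passed the adjusted threshold.

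Among the matrix receptors, the major chains ITGA5 and ITGB1 overlapped between the groups. ITGA5 stood at 258, 293 and 279 CPM in shControl, at 242, 304 and 269 CPM in shASXL2-2 and at 265, 274 and 284 CPM in shASXL2-3. ITGB1, the common beta chain, stood at 136, 145 and 165 CPM in shControl, at 136, 143 and 166 CPM in shASXL2-2 and at 136, 135 and 167 CPM in shASXL2-3. In both genes the 3 groups overlapped, and the log2 fold changes averaged over both shRNAs were -0.02 ± 0.06 and -0.02 ± 0.05 (SE, edgeR with block, adjusted p = 0.899 and 0.866).

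ITGA4 (chromosome 2, 182321929 to 182403667, GRCh37) stood at 499.8, 427 and 458 CPM in shControl, at 396, 404 and 377 CPM in shASXL2-2 and at 386, 439.9 and 454 CPM in shASXL2-3. All 3 shASXL2-2 samples lay below all 3 controls, an order that 7.8% of all genes had, and the shASXL2-3 samples overlapped the controls. Its log2 fold change for shASXL2-2 was -0.23 ± 0.10 (SE, edgeR, adjusted p = 0.91) without and -0.23 ± 0.09 (adjusted p = 0.21) with the block. In the blocked fit it was -0.14 without shControl numbered 1, -0.15 with a length and GC offset, and past the threshold without shASXL2-3 numbered 1 (adjusted p = 0.0352). ITGA9 (chromosome 3, 37493606 to 37864998), which like ITGA4 pairs with ITGB1, stood at 17.8, 14.6 and 14.1 CPM in shControl, at 14, 12.6 and 15.2 CPM in shASXL2-2 and at 12.3, 6.42 and 10.3 CPM in shASXL2-3. All 3 shASXL2-3 samples were below all 3 controls (5.28% of all genes) and below all 3 shASXL2-2 samples (2.44%). Its log2 fold change for shASXL2-3 was -0.68 ± 0.22 (SE, edgeR, adjusted p = 0.967) without the block and -0.71 ± 0.15 (adjusted p = 0.0683) with it, while DESeq2 with the block gave an adjusted p of 0.00203.

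ITGA2B (chromosome 17, 42449548 to 42467017) stood at 107, 109 and 98.0 CPM in shControl, at 69.2, 55.7 and 68.4 CPM in shASXL2-2 and at 144, 61.9 and 73.4 CPM in shASXL2-3. All 3 shASXL2-2 samples lay below all 3 controls, an order that 7.8% of all genes had and that ITGA4 and ITGAL shared. The shASXL2-3 samples numbered 13 and 25 also lay below the controls, and shASXL2-3 numbered 1 was the highest of the 9. For shASXL2-2 the log2 fold change was -0.71 ± 0.19 (SE, edgeR with block, adjusted p = 0.115), and without shASXL2-3 numbered 1 it was -0.71 ± 0.08 (adjusted p = 0.000551). For both shRNAs averaged it was -0.48 ± 0.16 (adjusted p = 0.141) with, and -0.66 ± 0.07 (adjusted p = 0.00056) without, that library, and -0.26 without shControl numbered 13. ITGA6, a laminin receptor chain, stood at 27.0, 20.7 and 16.4 CPM in shControl, at 21.7, 18.0 and 12.3 CPM in shASXL2-2 and at 28.1, 21.1 and 15.8 CPM in shASXL2-3. Its values ordered by number more than by group, and its log2 fold change for shASXL2-2 was -0.31 ± 0.08 (edgeR with block, adjusted p = 0.107).

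CD44 (chromosome 11, 35160429 to 35253949) had the smallest adjusted p of the 25 genes with the block for shASXL2-3 and for both shRNAs averaged, while for shASXL2-2 ITGA6 and ITGA2B had smaller ones. It stood at 323, 293 and 277 CPM in shControl, at 406, 350.3 and 313 CPM in shASXL2-2 and at 523, 369 and 343 CPM in shASXL2-3. Every knockdown sample exceeded the control of its number, an order that 11.6% of all genes showed, and the 3 shASXL2-3 samples exceeded all 3 controls (4.81% of all genes). The log2 fold change for shASXL2-3 was 0.47 ± 0.17 (SE, edgeR, adjusted p = 0.967) without and 0.45 ± 0.09 (adjusted p = 0.0504) with the block. For both shRNAs averaged it was 0.35 ± 0.08 (edgeR with block, adjusted p = 0.0602), and 0.29 ± 0.05 (adjusted p = 0.00657) without shASXL2-3 numbered 1. SELPLG (chromosome 12, 109015671 to 109027670) stood at 21.4, 12.7 and 11.7 CPM in shControl, at 21.6, 11.6 and 9.25 CPM in shASXL2-2 and at 43.3, 15.3 and 16.4 CPM in shASXL2-3. The groups overlapped, and each shASXL2-3 sample exceeded both other samples of its number. Such an order held in 20.2% of all genes against the control and in 16.3% against shASXL2-2. Against shControl the log2 fold change of SELPLG was 0.62 ± 0.13 (SE, edgeR with block, adjusted p = 0.072), and 0.78 (adjusted p = 0.0268) without shASXL2-3 numbered 13. With any 1 sample left out, this SELPLG value ran from 0.42 to 0.78 with the block and from 0.05 to 1.04 without the block. Against shASXL2-2 its log2 difference was 0.76 ± 0.13 (edgeR with block, adjusted p = 0.0831). That difference passed the threshold without shASXL2-3 numbered 1 (0.56, adjusted p = 0.0412), without shASXL2-3 numbered 13 (0.93, adjusted p = 0.011) and without shControl numbered 1 (0.76, adjusted p = 0.0457).

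The leukocyte chain ITGAM, the alpha chain of Mac-1, is given as well because it shared with CD44 the order of 6 pairs, a choice made after its values were seen. It was low, at 1.65, 1.29 and 1.70 CPM in shControl, 2.54, 2.01 and 2.25 CPM in shASXL2-2 and 3.10, 1.42 and 1.89 CPM in shASXL2-3, which are 38 to 91 counts a sample. The 3 shASXL2-2 samples exceeded all controls (7.15% of all genes), and averaged over both shRNAs it differed by 0.50 ± 0.19 on the log2 scale (SE, edgeR with block, adjusted p = 0.178). No gene of the set was below the control of its number in all 6 pairs, an order that 11.6% of all genes showed. No gene had all 6 knockdown samples above or below all 3 controls, beside 2.16% and 2.61% of all genes. The remaining tested genes, among them ITGAV, ITGAE, CD47 and the 4 immunoglobulin-like molecules, had an adjusted p of 0.253 or more in the blocked edgeR fit when both shRNAs were averaged.

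**Figure D3:**
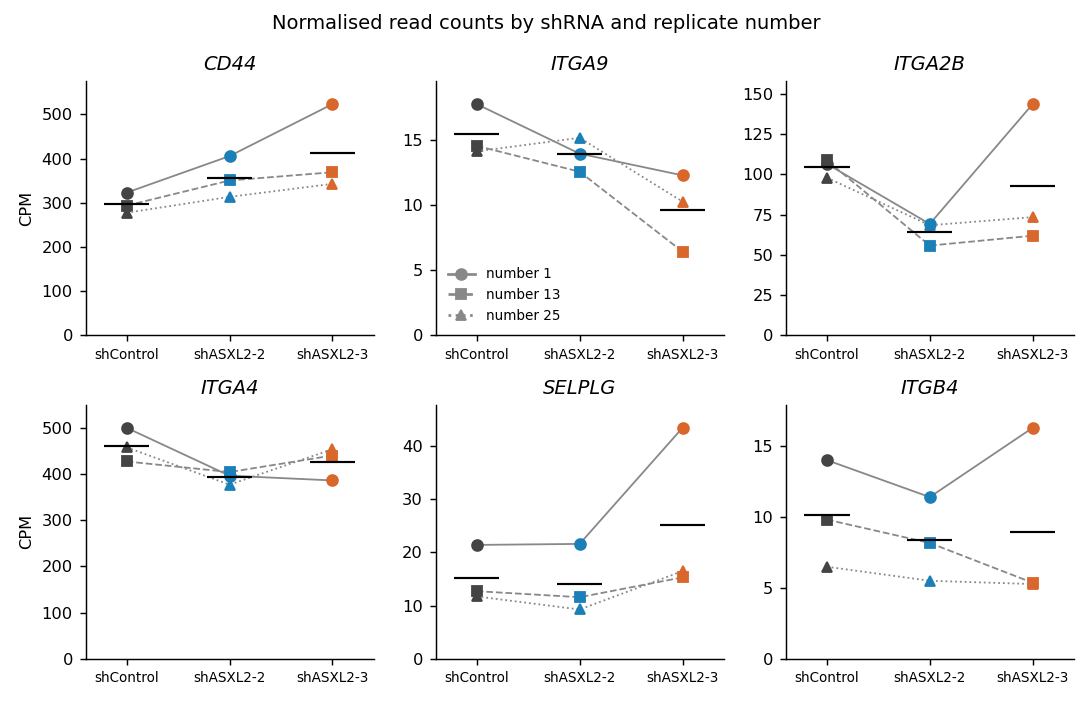
CPM of 6 adhesion genes by group on linear axes from 0, with 1 point per sample, lines joining samples of the same replicate number and bars at the group means. CD44 climbs along each of the 3 lines, ITGA9 is lowest in shASXL2-3 on each line, and shASXL2-3 numbered 1 departs upward for ITGA2B, SELPLG and ITGB4.

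Among the genes higher in the samples numbered 1 than in those numbered 13 and 25 were ITGB2, ITGAX, SELPLG, ICAM2, ICAM3 and PECAM1. In the fit with group and number, 14 of the 25 genes passed the threshold (edgeR), 12 higher and 2 lower in number 1, beside 46.3% of all genes (24.1% higher and 22.2% lower). The median log2 difference of the 25 genes was 0.35, and that of all genes 0.01. In 9 genes all 3 samples numbered 1 exceeded the other 6 (14.4% of all genes), and in ITGA5 and ITGAE all 3 were below them (12.1%). Without shASXL2-3 numbered 1, 12 genes were called, 10 higher and 2 lower (ITGA5 and ITGB1), beside 33.9% of all genes (17.4% higher and 16.5% lower). What the numbers stand for is not given, so this comparison names no condition. In bulk RNA, more cells of a kind and more RNA per cell cannot be told apart.

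ITGB2 had the largest log2 difference of the 25 genes. Of its 3 tested alpha chains ITGAX and ITGAL were called, and ITGAM was not (0.46 ± 0.18 SE on the log2 scale, edgeR, adjusted p = 0.0571). ITGB2 (chromosome 21, 46305868 to 46351904), the beta chain of all leukocyte integrins of that family, stood at 37.7, 45.4 and 92.4 CPM in the samples numbered 1 of shControl, shASXL2-2 and shASXL2-3, and at 16.1 to 26.2 CPM in the other 6. Number 1 exceeded the rest in each group, by 1.48 ± 0.22 on the log2 scale (SE, edgeR, adjusted p = 0.000934), and 1.03 without shASXL2-3 numbered 1. ITGAX, the alpha chain of p150,95, was at 2.89, 3.08 and 5.99 CPM in number 1 and at 1.08 to 2.70 CPM elsewhere, a log2 difference of 1.16 ± 0.27 (adjusted p = 0.00634). Without shASXL2-3 numbered 1 the difference in ITGAX was 0.63. ITGAL was at 0.853, 0.435 and 1.94 CPM in number 1, which overlapped the 0.243 to 0.700 CPM of the other samples. Its log2 difference of 0.98 ± 0.37 (adjusted p = 0.0499) was 0.27 (adjusted p = 0.56) without shASXL2-3 numbered 1. The monocyte markers CD14, FCGR3A and CSF1R moved with number 1 as a sum, at 2.20 to 4.02 CPM against 1.19 to 2.04 CPM in the other 6, nearly all of it CSF1R, since CD14 had at most 3 counts and FCGR3A at most 1 in any sample. Their part in the differences was not tested.

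SELPLG was at 21.4, 21.6 and 43.3 CPM in number 1 and at 9.25 to 16.4 CPM elsewhere, differing by 1.12 ± 0.11 on the log2 scale (SE, edgeR, adjusted p = 0.000174), the smallest p of the set. ICAM3, which binds LFA-1, was at 82.8, 90.3 and 135 CPM against 49.98 to 76.5 CPM, a log2 difference of 0.82 ± 0.14 (adjusted p = 0.0014). ICAM2 was at 60.0, 68.7 and 67.5 CPM against 44.8 to 51.4 CPM, a log2 difference of 0.41 ± 0.07 (adjusted p = 0.00113). PECAM1, an adhesion molecule of leukocytes and endothelium, was at 3.35, 3.18 and 3.92 CPM against 1.75 to 2.13 CPM, a log2 difference of 0.88 ± 0.13 (adjusted p = 0.000976). In these 4 genes number 1 exceeded the other samples without overlap. CD44 was at 323, 406 and 523 CPM against 277 to 369 CPM, so it overlapped, and its log2 difference was 0.35 ± 0.07 (adjusted p = 0.0041). With any 1 sample left out, the differences ran from 0.93 to 1.26 for SELPLG and from 0.57 to 1.05 for ICAM3. That of CD44 ran from 0.23 to 0.43.

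Among the other beta chains, ITGB4, the laminin receptor partner of ITGA6, was at 14, 11.4 and 16.3 CPM in number 1 and at 5.28 to 9.83 CPM elsewhere, differing by 1.07 ± 0.16 on the log2 scale (SE, edgeR, adjusted p = 0.000848). With any 1 sample left out, the ITGB4 difference ran from 0.78 to 1.22. ITGA6 itself was at 27.0, 21.7 and 28.1 CPM against 12.3 to 21.1 CPM, a log2 difference of 0.57 ± 0.07 (adjusted p = 0.000336). ITGB7, the mucosal homing partner of ITGA4 and ITGAE, was at 6.30, 5.32 and 8 CPM against 3.54 to 5.21 CPM, a log2 difference of 0.59 ± 0.12 (adjusted p = 0.00382). Both laminin receptor chains and ITGB7 were thus without overlap. ITGAE, the chain that binds E-cadherin, was lower, at 13.2, 15 and 12.8 CPM against 15.3 to 19.6 CPM, with a log2 difference of -0.34 ± 0.09 (adjusted p = 0.0131). Without shASXL2-3 numbered 1 the ITGAE difference was -0.23 (adjusted p = 0.0592). ITGB1 was at 136 CPM in each of the 3 samples against 135 to 167 CPM, a log2 difference of -0.17 ± 0.05 (adjusted p = 0.0266), which missed the threshold without shControl numbered 1 (adjusted p = 0.094), shControl numbered 13 (0.0686), shASXL2-2 numbered 1 (0.0877) or shASXL2-2 numbered 25 (0.0562). ITGA2B was called higher by 0.45 ± 0.16 (adjusted p = 0.0415), and by 0.10 (adjusted p = 0.38) without shASXL2-3 numbered 1.

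ITGA4 and ITGA5, the most abundant alpha chains, did not pass the threshold between number 1 and the rest. Their log2 differences were 0.00 ± 0.08 and -0.16 ± 0.06 (SE, edgeR, adjusted p = 0.992 and 0.0672). ITGA5 was called lower without shASXL2-3 numbered 1 or 13, with a length and GC offset and in DESeq2.

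**Figure D4:**
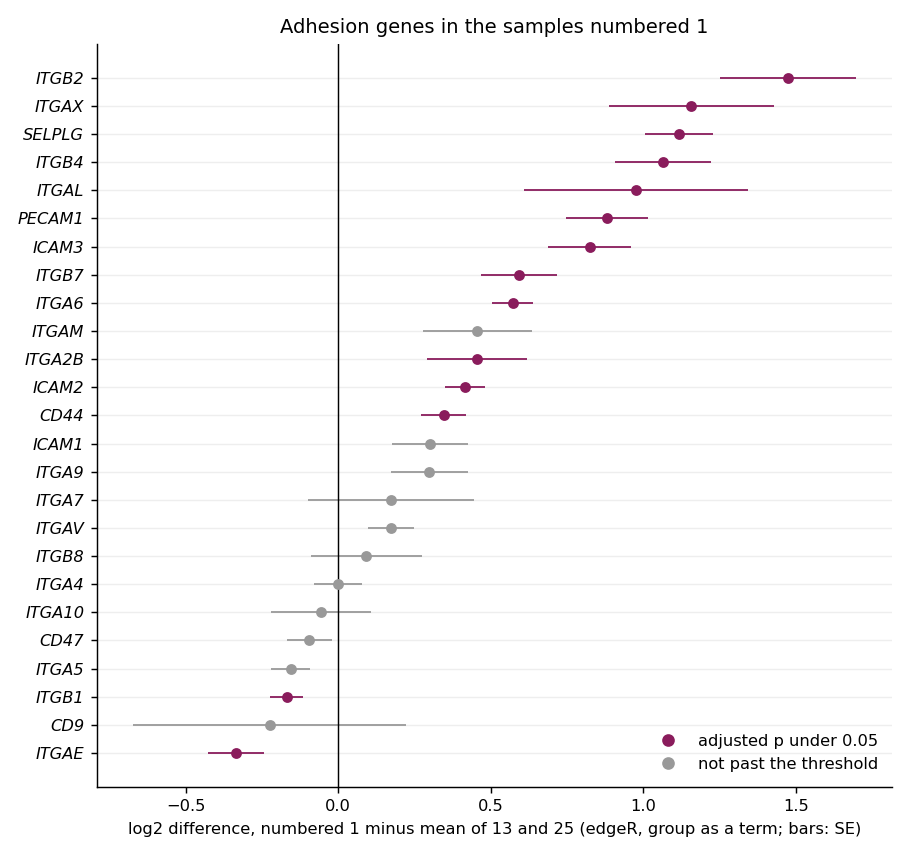
Log2 difference between the samples numbered 1 and the mean of those numbered 13 and 25 for the 25 tested adhesion genes, from edgeR with group as a term, with bars of 1 SE. The 14 coloured points passed the threshold, 12 of them right of 0, led by ITGB2 at 1.48, and ITGB1 and ITGAE left of 0.

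**Figure D5:**
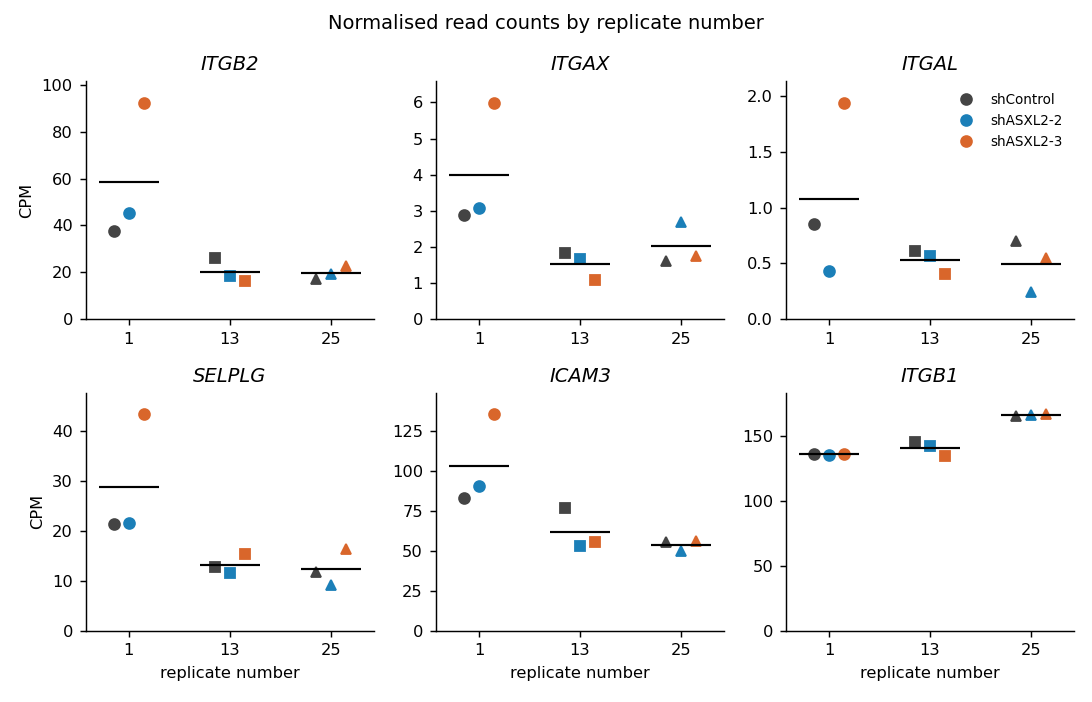
CPM of 6 adhesion genes by replicate number on linear axes from 0, with 1 point per sample coloured by shRNA and bars at the mean of each number. For ITGB2, SELPLG, ICAM3 and ITGAX the 3 points of number 1 lie above the other 6, with shASXL2-3 the highest, whereas ITGAL overlaps and ITGB1 is highest in number 25.

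Between numbers 25 and 13 fewer genes differed: 2 of the 25 passed the threshold (edgeR), 1 higher and 1 lower, beside 5.87% of all genes (2.77% higher and 3.1% lower). ICAM1 (chromosome 19, 10381769 to 10397291), an inducible ligand of the beta2 integrins whose promoter is printed above, was at 27.8, 26.7 and 21.4 CPM in the number 13 samples of shControl, shASXL2-2 and shASXL2-3, and at 31.8, 42.1 and 43.8 CPM in the number 25 samples. Number 25 was higher in each group without overlap, by 0.62 ± 0.15 on the log2 scale (SE, edgeR, adjusted p = 0.0373), and by 0.40 (adjusted p = 0.0572) without shASXL2-3 numbered 13. ITGA6 was at 20.7, 18.0 and 21.1 CPM in number 13 and at 16.4, 12.3 and 15.8 CPM in number 25, lower without overlap by a log2 difference of -0.43 ± 0.08 (adjusted p = 0.0149). In all, 3 genes (ITGA10, ITGB1 and ICAM1) had all number 25 samples above all number 13 samples, beside 15.9% of all genes. The reverse order held in 4 genes (ITGA6, ITGB8, PECAM1 and CD47), beside 15.7%. Without shASXL2-3 numbered 1 the fit called 5 genes (CD47, ICAM1, ITGA6, ITGB1 and ITGB4), beside 19.3% of all genes. It called 1 gene without shControl numbered 13 (ICAM1, beside 249 of all 14199 genes) or shASXL2-2 numbered 1 (ITGA6, beside 744). Without shASXL2-3 numbered 13 it called ITGA6 and ITGB4, beside 893 of all genes. It called 0 without shControl numbered 25, shASXL2-2 numbered 13, shASXL2-2 numbered 25 or shASXL2-3 numbered 25. Of all genes these fits called 51, 88, 84 and 92, so the calls fell across all genes as well.

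The genes around these receptors were read from a list of 89 genes, 65 of them tested: 42 of integrin activation and adhesion signalling, 15 ligands and 8 tetraspanins. For the shRNA comparisons edgeR called 0 of the 65 without or with the block. The smallest p values for both shRNAs averaged with the block belonged to VCL, which links integrins to actin (log2 fold change -0.28 ± 0.07 SE, adjusted p = 0.0845), to ITGB1BP1, which binds the ITGB1 tail (0.24 ± 0.06, adjusted p = 0.0848), and to the tetraspanin TSPAN33 (-0.21 ± 0.06, adjusted p = 0.0893). VCL was at 122, 93.3 and 89.8 CPM in shControl, at 94.7, 67.5 and 64.2 CPM in shASXL2-2 and at 126, 71.5 and 86.3 CPM in shASXL2-3, so the groups overlapped, and DESeq2 with the block gave it an adjusted p of 0.0258 for both averaged. Each shASXL2-2 sample lay below the control of its number, an order that 24.5% of all genes showed. The VCL log2 fold change for shASXL2-2 was -0.44 ± 0.09 (SE, edgeR with block, adjusted p = 0.0738). That value passed the threshold in DESeq2 with the block (adjusted p = 0.00119), and in the blocked edgeR fit without shASXL2-3 numbered 1 (0.00382) or 13 (0.0155). Without shASXL2-3 numbered 1 all 3 genes passed the threshold in the blocked fit, beside the 12.2% of all genes given above.

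Between number 1 and the others, 34 of the 65 genes were called (edgeR), 21 higher and 13 lower, beside the 46.3% of all genes given above. Among those higher were FYB, an adaptor of integrin activation in blood cells (0.78 ± 0.07 SE on the log2 scale, adjusted p = 8.76e-05), and VCL (0.54 ± 0.07, adjusted p = 0.000589). FYB was at 93.8, 83.2 and 97.8 CPM in number 1 of the 3 groups and at 47.3 to 61.7 CPM elsewhere, without overlap. Between 25 and 13, 6 were called (edgeR), all lower in 25 and among them APBB1IP, CYTH1, RASSF5, SRC and TES, beside the 3.1% of all genes that were lower. These 6 calls are given for the fit to all 9 samples only. Without 1 sample that comparison called 51 to 2746 of all genes, against 833.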

How the data were processed

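Messenger RNA of 9 SKNO-1 samples was analysed from the deposited counts, which the authors made as whole-number counts per RefSeq transcript on hg19 (48104 rows a sample, not normalised). The submitters' processing notes name STAR, featureCounts and DESeq2; which of them made these files, and their versions, are not given in the sources used here. The study's methods describe unstranded libraries, so reads of a gene and its antisense partner cannot be told apart. Isoforms share reads, so each of 25680 symbols was represented by its row with the highest total, and 9509 symbols had more than 1 row.

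The quasi-likelihood test of edgeR 4.0.16 (R 4.3.3) was fitted to all 9 samples and 14199 genes (filterByExpr, minimum count 10, minimum total 15, TMM scaling), with 1 coefficient per group and 6 residual degrees of freedom, or with the replicate number as a block and 4. The number comparisons came from the additive fit of group and number. P values were adjusted by Benjamini-Hochberg over all genes, with a threshold of 0.05. The SE is the log2 fold change divided by the root of its F statistic. DESeq2 1.42.0 was an alternative. The numbers were taken to pair the samples, since deviations from the group means correlated in each of the 9 same-numbered pairs (lowest r 0.398, mean 0.598; highest r between different numbers 0.305). On simulated counts with the real number effects, 200 genes were changed by 1 on the log2 scale, alike for both shRNAs. The fits recovered 61% of them without and 91% with the block for both shRNAs averaged, over 14199 genes. False calls were 0 among 122 without and 16 among 198 with the block. The counts were drawn from the blocked fit itself, with number effects alike in all groups, a form that favours the block. The simulation therefore cannot show how either fit does where a single library departs from its number. Smaller changes, and changes that differ between the shRNAs, were not simulated.

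Gene lengths and locations are from GENCODE v44 lifted to GRCh37, promoters from RefSeq on GRCh38.p14. The members and the lists were chosen with earlier results of these data known. Per-sample values are given for ASXL2, for members past the threshold in any fit, for the 3 with the smallest p for both shRNAs averaged without the block and for the 6 highest per kilobase, and from the adhesion list for the 3 smallest p in 2 comparisons, except that some genes of that list are not reported here by name. Shared controls link the shRNA comparisons, so these are not independent.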

Additional observations from a re-analysis of the deposited data

How the results depend on the processing

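For the 25 tested genes, the count called in the shRNA comparisons stayed at 0 in edgeR under other size factors, with no filter, with summed transcript rows, in DESeq2 without the block and without any 1 sample. Of all genes, these edgeR fits called 0 or 1 and DESeq2 called 11 to 56. The edgeR fit with a replicate block called 0 of the 25 genes in each of the 4 comparisons, beside 15 to 156 of all genes. With a length and GC offset it also called 0, beside 4 to 24 of all genes, so in edgeR the block changed no call of the 25 genes. In edgeR it brought ASXL2 past the threshold for shASXL2-2 (-1.04, adjusted p = 0.00469), for shASXL2-3 (-1.14, adjusted p = 0.00407) and for both averaged (-1.09, adjusted p = 0.00098). DESeq2 called ASXL2 without the block, with adjusted p of 5.12e-05, 2.92e-06 and 1.8e-08 in these 3 comparisons. Other alternatives joined to the block than that offset were chosen after seeing the data. DESeq2 with the block called 3 genes for shASXL2-3, 2 for both averaged and 1 between the shRNAs, beside 3.34%, 4.38% and 1.07% of all genes. The blocked fit without 1 sample called 0 to 4 genes for shASXL2-2, 0 to 4 for shASXL2-3, 0 to 4 for both averaged and 0 to 2 between the shRNAs. Of all 14199 genes it called 0 to 1600, 1 to 367, 2 to 1734 and 0 to 255 in these comparisons. Among the 25 genes the highest counts were those without shASXL2-3 numbered 1, and the cause was not tested.

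The count for number 1 was 11 to 15 over its alternatives against 14, beside 4817 to 7068 of all tested genes against 6570. ITGAL missed the threshold in 11 and ITGA2B in 9 of 15 alternatives. For number 25 against 13 the count of 2 became 0 without the group term and 1 with summed rows, and 0 to 5 without 1 sample, the cause of which was not tested. Of all tested genes, these fits called 304, 670 and 51 to 2746, against 833. Of 986 gene values under an alternative 15 changed sign, each of a log2 fold change that had missed the threshold. ITGB4 for shASXL2-3 was -0.93 to 0.14 without 1 sample, and 0.00305 with the block without shASXL2-3 numbered 13. Averaged over both shRNAs, ITGB4 was -0.609 to 0.087, ITGB1 -0.0785 to 0.067 and ITGA5 -0.0664 to 0.0255 without 1 sample. With the block ITGB1 was 0.00273 without shControl numbered 13, and ITGA5 was 0.0414 with a length and GC offset, 0.00647 without shASXL2-2 numbered 1 and 0.012 without shASXL2-3 numbered 13. The 10 genes with at most 8 counts in any sample were not tested.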

Other observations

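CD44 had 8 RefSeq rows, and beside NM_000610, the row used, 5 others held 98.6% or more of its count in each sample. NM_001202557 held 35.9% to 41.5% and NM_001001392 80.2% to 82.4% of it. For ITGB7 the non-coding row NR_104181 held 74.5% to 86.0% of the count of NM_000889. RefSeq rows of a gene overlap, so these shares are not isoform fractions.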
